A study of Schizosaccharomyces pombe with 12 samples.

Results

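The comparison described here sets fission yeast cells (Schizosaccharomyces pombe) given hydrogen peroxide (H2O2) alone against cells given heat alone. It uses the 6 arrays of those conditions out of 12 in the series, chosen by the sample titles, with 1 array for each of 3 strains in each condition. The H2O2 cells had received 25 mM H2O2 for 1 h, which the titles call a severe stress, and the heat cells had been held at 40 °C for 1 h, which the titles call a priming stress. The strains were slm9D, hip1D and a wild type (WT), in which slm9 and hip1 encode subunits of the histone chaperone HIRA. All 3 were h- cells carrying leu1-32 and ura4-D18, the deletions had been made with ura4, and cultures were in log phase in rich YES medium at 32 °C before the stress. The other 6 arrays, of cells given heat and then H2O2 and of unstressed cells, entered the fit only for its spread and are quoted for orientation. The submitters describe growth in quadruplicate with aliquots of each strain given the 4 conditions. Whether a strain's arrays share 1 culture is not said there, and a p-value here reflects just how far the arrays vary among themselves. Of 10928 probe sets, 2917 had exactly 1 S. pombe gene, and these were tested.

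Both stresses activate the MAP kinase Sty1, which acts through the transcription factor Atf1 on a broad set of stress genes. Peroxide is also sensed by the peroxiredoxin Tpx1, which passes oxidation on to the transcription factor Pap1, a regulator of thioredoxin and catalase genes. Heat unfolds proteins and activates the heat shock factor Hsf1, which drives chaperone genes. HIRA places histones on DNA outside replication. The question put to these arrays is which transcripts tell the stresses apart.

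Some features of the arrays touch every result below. The genes deleted by the labels were lower in the strain named for them: the slm9 signal was 4.84 after H2O2 and 5.39 after heat in slm9D, against 9.23 to 9.74 in the other strains, and the hip1 signal was 8.30 and 8.41 in hip1D, against 9.42 to 9.73 in the others. The hip1 signal in hip1D thus stayed well above the background of those arrays (3.80 and 3.62), and the position of its probes relative to the deletion was not analysed here. The median log2 signal of the S. pombe probe sets was 9.46, 9.48 and 9.36 after H2O2 in slm9D, hip1D and WT, against 9.57, 9.53 and 9.51 after heat, and the WT H2O2 array was the lowest. Across genes, the WT H2O2 array correlated at 0.928 with each mutant H2O2 array, whereas the mutants correlated with each other at 0.998, values that share one platform and serve as a description only. Control probe sets for ribosomal RNA were brighter after H2O2: the 28S probe averaged 12.80 ± 0.10, against 10.18 ± 0.51 after heat, and the 18S probe averaged 12.06 ± 0.23, against 10.00 ± 0.19 (log2, SD, n = 3 each). The 3' minus 5' signals of control genes went both ways. ACT1 had 0.65 ± 0.01 after H2O2 and 0.50 ± 0.05 after heat, TFIID 0.67 ± 0.16 and 0.56 ± 0.06, and SRB4 -0.10 ± 0.10 and -0.15 ± 0.10. In the other direction, CC338.15 had 1.16 ± 0.10 after H2O2 and 1.39 ± 0.18 after heat, and RIP1 0.98 ± 0.10 and 1.16 ± 0.27. Whether these features contribute to the gene differences was not tested.

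The difference also depended on brightness. The probe sets were divided by mean signal into 5 bins of 583 or 584. In the dimmest bin the median log2 difference, H2O2 minus heat, was -0.54, and in the brighter ones it was, in order of signal, -0.31, -0.14, 0.04 and 0.12. Over all probe sets the median was -0.115. Quantile normalization repeated on the S. pombe probe sets alone brought it to -0.001, with bins between -0.04 and 0.03, and giving the arrays one common median over probe sets outside the S. pombe gene table moved it to -0.186. For lists of dim genes the value under the first of these scalings is therefore given beside the deposited one.

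**Figure D1:**
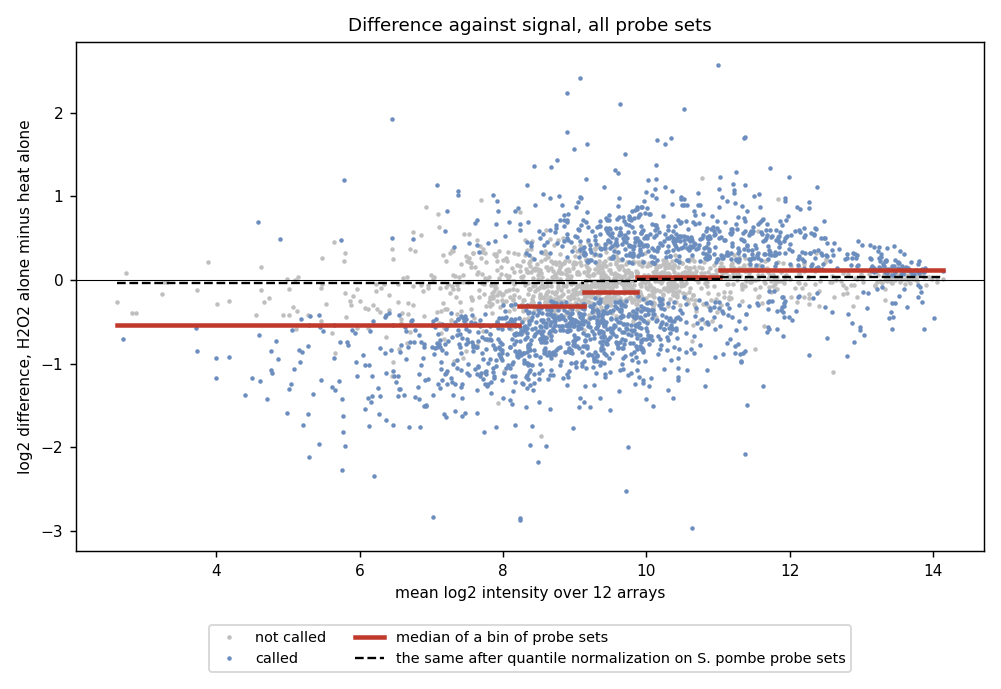
Log2 difference, H2O2 alone minus heat alone, of 2917 probe sets (vertical) against their mean log2 intensity over 12 arrays (horizontal). Red bars are medians of 5 bins of probe sets, from -0.54 in the dimmest to 0.12 in the brightest, and dashed bars are the same once S. pombe probe sets were quantile-normalized, which stay between -0.04 and 0.03.

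By limma with strain as a block, at a Benjamini-Hochberg adjusted p under 0.05, 673 probe sets (23.1%) were higher after H2O2 than after heat and 1008 (34.6%) were lower. At least 2-fold differences were fewer, with 51 higher and 212 lower. Quantile normalization changed this split to 810 higher and 737 lower, and to 82 and 77 at least 2-fold. Without the block for strain 455 were higher and 616 lower. Leaving out slm9D gave 385 higher and 563 lower, leaving out hip1D 440 and 631, and leaving out WT 919 and 1366. Counts of list members below are read against 23.1% and 34.6%. These shares moved with brightness. In the dimmest bin 28 of 584 were higher and 318 lower, and in the brightest bin 270 and 89 of 584. For dim or bright lists these bins are the nearer background, and list counts were not adjusted for signal.

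Genes with the largest positive differences included a peroxide repair enzyme, a Sty1 phosphatase, RNA helicases and S phase and cell separation genes, while the largest negative ones included several genes named for induction in the sexual cycle. The 12 largest positive differences with one sign in all strains ran from 3.08-fold for nmt1 to 5.94-fold for srx1. The 11 negative ones described here ran from 3.99-fold for psu1 to 7.82-fold for sro1. Levels after H2O2 and after heat did not overlap for any of these but nmt1, where they overlapped because the WT lay far below both mutants under either stress.

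**Figure D2:**
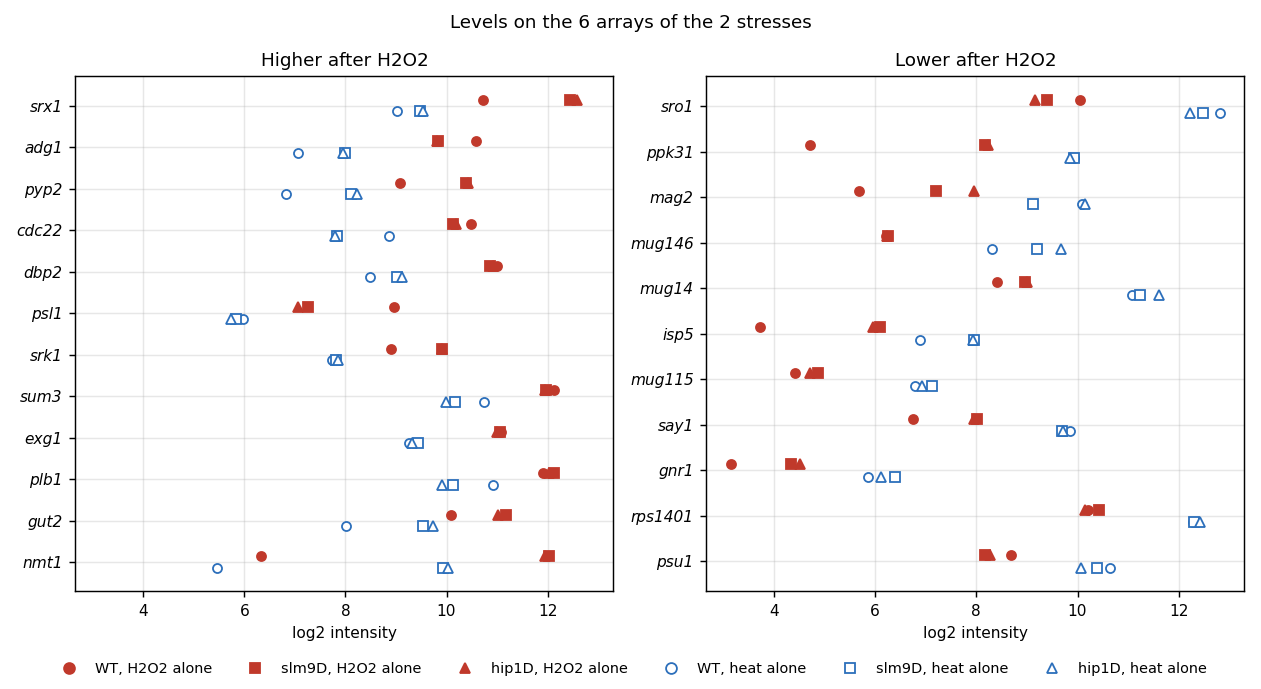
Log2 intensity (horizontal) on each of the 6 arrays for 12 genes that were higher after H2O2 (left, rows) and 11 that were lower (right, rows). Filled red symbols are H2O2 alone and open blue symbols heat alone, with shapes for strains, and red and blue separate for each gene but nmt1, whose WT levels lie apart.

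Peroxide defence genes separated the stresses unevenly. The sulfiredoxin gene srx1, whose product restores over-oxidised Tpx1, had log2 levels of 12.44, 12.57 and 10.71 after H2O2 in slm9D, hip1D and WT, against 9.47, 9.53 and 9.02 after heat. Every H2O2 level lay above every heat level, although WT reached a lower level than the mutants. It was 5.94-fold higher after H2O2 (log2 2.57, SE 0.29, limma adjusted p = 0.000112). Against unstressed cells it differed by 2.23 after H2O2 and -0.34 after heat.

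Other antioxidant genes moved less or the other way. The thioredoxin-like gene txl1 was 1.93-fold higher after H2O2 (adjusted p = 1.75e-05) and the oxidation resistance gene oxr1 1.61-fold higher (adjusted p = 0.000472). For oxr1 both stresses gave higher levels than no stress, by 1.57 for H2O2 and 0.88 for heat. The thioredoxin reductase gene trr1 was 1.25-fold higher (adjusted p = 0.00570), a call lost after quantile normalization (adjusted p = 0.0702) and without slm9D (0.0632) or hip1D (0.0569). The peroxiredoxin gene tpx1 was 1.25-fold lower after H2O2 (adjusted p = 0.000771), with no overlap between groups. Of 25 genes listed for peroxide defence and thiol redox, 10 were higher, 6 lower and 9 not called. Their median difference was 0.10, with 0.20 in slm9D, 0.26 in hip1D and -0.16 in WT, against -0.11 over all probe sets. The list's median signal of 11.22 fell in the brightest bin. There the median difference was 0.12, with 270 of 584 probe sets higher and 89 lower, so the list did not exceed its nearer background.

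The catalase gene ctt1 and the glutathione transferase gene gst2 did not pass the test over the 3 strains. For ctt1 the log2 levels were 12.62, 12.68 and 11.51 after H2O2 in slm9D, hip1D and WT, against 11.62, 11.52 and 12.14 after heat. The mutants were thus higher after H2O2 and WT was lower, and the fitted difference was 0.51 (SE 0.28, adjusted p = 0.145). For gst2 the levels were 12.74, 12.75 and 11.37 after H2O2, against 12.54, 12.55 and 12.70 after heat, a difference of -0.31 (SE 0.31, adjusted p = 0.419). Without WT these differences were 1.08 for ctt1 and 0.20 for gst2. Both were called, but that fit holds only slm9D and hip1D, whose arrays correlated at 0.998 after H2O2. It called 2285 of the 2917 probe sets, so a call there carries little weight. The Pap1 gene itself was 1.20-fold lower after H2O2 (adjusted p = 0.0420), with groups that overlapped, and the call was lost without slm9D, without hip1D and in the fit without a strain block (adjusted p = 0.204, 0.119 and 0.308). Of 16 genes listed for the Pap1 pathway and drug efflux, 2 were higher and 4 lower.

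Within the Sty1 pathway, a phosphatase and a downstream kinase were higher after H2O2 and an upstream kinase was lower. The phosphatase gene pyp2, whose product inactivates Sty1, had levels of 10.38, 10.42 and 9.08 after H2O2 in slm9D, hip1D and WT, against 8.11, 8.22 and 6.82 after heat. Each strain was higher after H2O2, and no H2O2 level fell within the heat range. The difference was 4.72-fold (log2 2.24, SE 0.24, adjusted p = 8.64e-05). The gene srk1, for a kinase that Sty1 phosphorylates and that restrains entry into mitosis, was 3.40-fold higher after H2O2 (adjusted p = 0.000144). It differed from unstressed by 1.90 after H2O2 and 0.13 after heat.

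The MAP kinase kinase kinase gene wis4 was 2.91-fold lower after H2O2 (log2 -1.54, SE 0.13, adjusted p = 2.67e-05), and it differed from unstressed by -1.47 after H2O2 and 0.07 after heat. The genes sty1 and atf1 themselves were not called, with differences of 0.08 (adjusted p = 0.371) and 0.24 (adjusted p = 0.164). After quantile normalization atf1 was called (0.35, adjusted p = 0.0303).

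The most negative difference belonged to sro1, a gene named for its response to stress. It had levels of 9.40, 9.16 and 10.05 after H2O2 in slm9D, hip1D and WT, against 12.48, 12.23 and 12.82 after heat. The groups were far apart, and the difference was 7.82-fold (log2 -2.97, SE 0.16, adjusted p = 8.24e-06). It differed from unstressed by -1.39 after H2O2 and 1.57 after heat.

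Of 50 genes listed for the general Sty1 response, 5 were higher after H2O2, 21 lower and 24 not called. The median difference was -0.39, and -0.23 after quantile normalization. By strain it was -0.08 in slm9D, 0.01 in hip1D and -0.85 in WT, so WT decided it. Without WT the counts were 20 higher and 23 lower, beside 919 and 1366 of 2917 over all probe sets in that fit. Against unstressed cells the list's median was 0.04 after H2O2 and 0.35 after heat.

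Chaperone genes stood higher after heat in most cases, by small fold differences. Of 23 heat shock protein and co-chaperone genes, 16 were lower after H2O2 and 5 higher. The median difference was -0.38, and -0.40 after quantile normalization, beside -0.26 without WT. The gene of the Hsp70 chaperone Ssa1 had levels of 12.99, 13.00 and 11.50 after H2O2 in slm9D, hip1D and WT, against 13.49, 13.51 and 13.21 after heat. The WT H2O2 level was the lowest by a wide margin, and the groups did not overlap. ssa1 was 1.87-fold lower after H2O2 (log2 -0.91, SE 0.22, adjusted p = 0.00580), with a difference of -0.50 without WT.

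The small heat shock protein gene hsp16 was 1.50-fold lower after H2O2 (adjusted p = 0.0259) and hsp9 was 1.37-fold lower (adjusted p = 0.0216). Without WT their differences were -0.31 and -0.23, against -0.58 and -0.45 with it. All heat levels of both exceeded all H2O2 levels. In a fit of the 6 arrays alone the calls of ssa1, hsp16 and hsp9 were lost (adjusted p = 0.0570, 0.0635 and 0.0695), and that of hsp9 also after quantile normalization (adjusted p = 0.0504). Differences that were small but even across strains had smaller p-values: hsp90 was 1.20-fold lower (adjusted p = 0.000138), the mitochondrial co-chaperonin gene hsp10 1.37-fold lower (adjusted p = 1.77e-05) and the Hsp90 co-chaperone gene wos2 1.36-fold lower (adjusted p = 2.58e-05). The probe sets tested here include none for hsp104, which is not analysed here.

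A pair of chaperone genes were higher after H2O2. The ribosome-associated Hsp70 gene sks2 was 1.24-fold higher after H2O2 (adjusted p = 3.55e-05) and zuo1, for a J protein of the ribosome, 1.81-fold higher (adjusted p = 9.25e-06). Against unstressed cells sks2 differed by -0.06 after H2O2 and -0.38 after heat, and zuo1 by -0.08 and -0.93. The heat shock factor gene hsf1 was 1.43-fold higher after H2O2 (adjusted p = 0.0127). That call was lost without slm9D or hip1D (adjusted p = 0.126 and 0.135) and in the fit of 6 arrays (adjusted p = 0.0576).

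Of 11 genes of the chaperonin that folds actin and tubulin and of its partner prefoldin, 7 were higher after H2O2 and 2 lower, with a median of 0.31 (0.16 after quantile normalization). Chaperonin subunit genes cct8, cct6 and cct3 were 1.51-fold, 1.43-fold and 1.25-fold higher. The prefoldin gene pfd5 was 1.84-fold lower (adjusted p = 8.05e-05). For cct6 the groups overlapped, since its WT heat level of 11.95 exceeded the mutant H2O2 levels of 11.93, although each strain was higher after H2O2.

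Among genes of protein breakdown, those of the proteasome were mostly higher or uncalled and those of ubiquitin transfer were mixed. Of 31 proteasome genes 14 were higher after H2O2 and 4 lower, with a median of 0.10 that turned to -0.03 after quantile normalization. The list's median signal of 11.65 fell in the brightest bin, where 270 of 584 probe sets were higher and 89 lower. The regulatory particle gene rpn3 was 1.77-fold higher (adjusted p = 2.05e-05). It differed from unstressed by 0.42 after H2O2 and -0.40 after heat. Of 39 genes of ubiquitin and protein quality control 13 were higher and 11 lower. The proteasome-bound deubiquitinase gene ubp6 was 1.73-fold higher (adjusted p = 3.92e-05) and the shuttle receptor gene rhp23 1.60-fold higher (adjusted p = 3.48e-05). The ubiquitin ligase gene ubr11 was 2.29-fold lower (adjusted p = 1.73e-05) and the conjugating enzyme gene rhp6 1.48-fold lower (adjusted p = 3.15e-05).

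Protein synthesis genes were among the most uniform. Of 41 translation factor and tRNA synthetase genes, 31 were higher after H2O2 and 3 lower, with a median of 0.39 that kept its sign in each strain (0.30 in slm9D, 0.42 in hip1D and 0.43 in WT) and after quantile normalization (0.31). Against unstressed cells the list's median was -0.06 after H2O2 and -0.52 after heat. The gene sum3, for a DEAD-box RNA helicase of translation initiation, had levels of 11.97, 11.95 and 12.13 after H2O2 in slm9D, hip1D and WT, against 10.17, 9.99 and 10.75 after heat. The groups lay apart, and heat levels were the lower ones. The difference was 3.28-fold (log2 1.71, SE 0.11, adjusted p = 8.24e-06).

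Among further members, the asparaginyl-tRNA synthetase gene nrs1 was 2.20-fold higher (adjusted p = 8.24e-06), the lysyl-tRNA synthetase gene krs1 2.00-fold higher (adjusted p = 1.27e-05) and tif213, for a subunit of the initiation factor eIF2, 1.65-fold higher (adjusted p = 1.11e-05). Their H2O2 levels differed from unstressed by -0.03, -0.03 and -0.14, and their heat levels by -1.17, -1.03 and -0.86.

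Ribosomal protein genes shifted by little. Of 118 measured, 70 were higher after H2O2, 3 lower and 45 not called, with a median of 0.10. That median was 0.06 after quantile normalization (55 higher and 9 lower) and 0.03 with a common median over probe sets outside the S. pombe table (38 and 16). The list's median signal of 13.43 fell in the brightest bin. Over all probe sets of that bin the median was 0.12, with 270 of 584 higher and 89 lower. rpl801 was 1.23-fold higher (adjusted p = 2.02e-05) and rpl1603 2.58-fold higher (adjusted p = 2.23e-05). The rpl1603 groups overlapped because WT stood above the mutants under both stresses.

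One ribosomal protein gene differed strongly the other way. rps1401, for a protein of the small subunit, had levels of 10.42, 10.14 and 10.20 after H2O2 in slm9D, hip1D and WT, against 12.30, 12.41 and 12.28 after heat. The strains agreed closely within each stress, and the groups were far apart. It was 4.22-fold lower after H2O2 (log2 -2.08, SE 0.07, adjusted p = 6.17e-07), and unstressed levels of 12.23, 12.24 and 12.27 were near those after heat. Its paralog rps1402 was 1.32-fold higher after H2O2 (adjusted p = 2.05e-05). The coding sequences of such paralogs can be alike, and the array's probes were not analysed here, so how far the signals of the pair are separate was not tested.

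Ribosome biogenesis split. Of 49 genes, 20 were higher after H2O2 and 13 lower, with a median of -0.01 that was 0.06 after quantile normalization. dbp2, for an RNA helicase, had levels of 10.85, 10.92 and 10.99 after H2O2 in slm9D, hip1D and WT, against 9.03, 9.12 and 8.48 after heat, a 4.12-fold difference (adjusted p = 1.75e-05). The nucleolar protein gene gar2 was 3.08-fold higher (adjusted p = 1.27e-05). Against unstressed cells dbp2 differed by -0.34 after H2O2 and -2.38 after heat, and gar2 by -0.51 and -2.13. The GTPase genes lsg1 and bms1, for large and small subunit assembly, were 2.66-fold and 2.26-fold lower after H2O2 (adjusted p = 2.01e-05 and 2.17e-05).

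Of 33 genes of RNA polymerases I and III and their factors, 17 were lower after H2O2 and 4 higher, with a median of -0.35 (-0.14 after quantile normalization). The largest subunit gene of polymerase III, rpc1, was 2.41-fold lower (adjusted p = 6.15e-05) and the polymerase I subunit gene rpa43 1.85-fold higher (adjusted p = 5.11e-05).

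**Figure D3:**
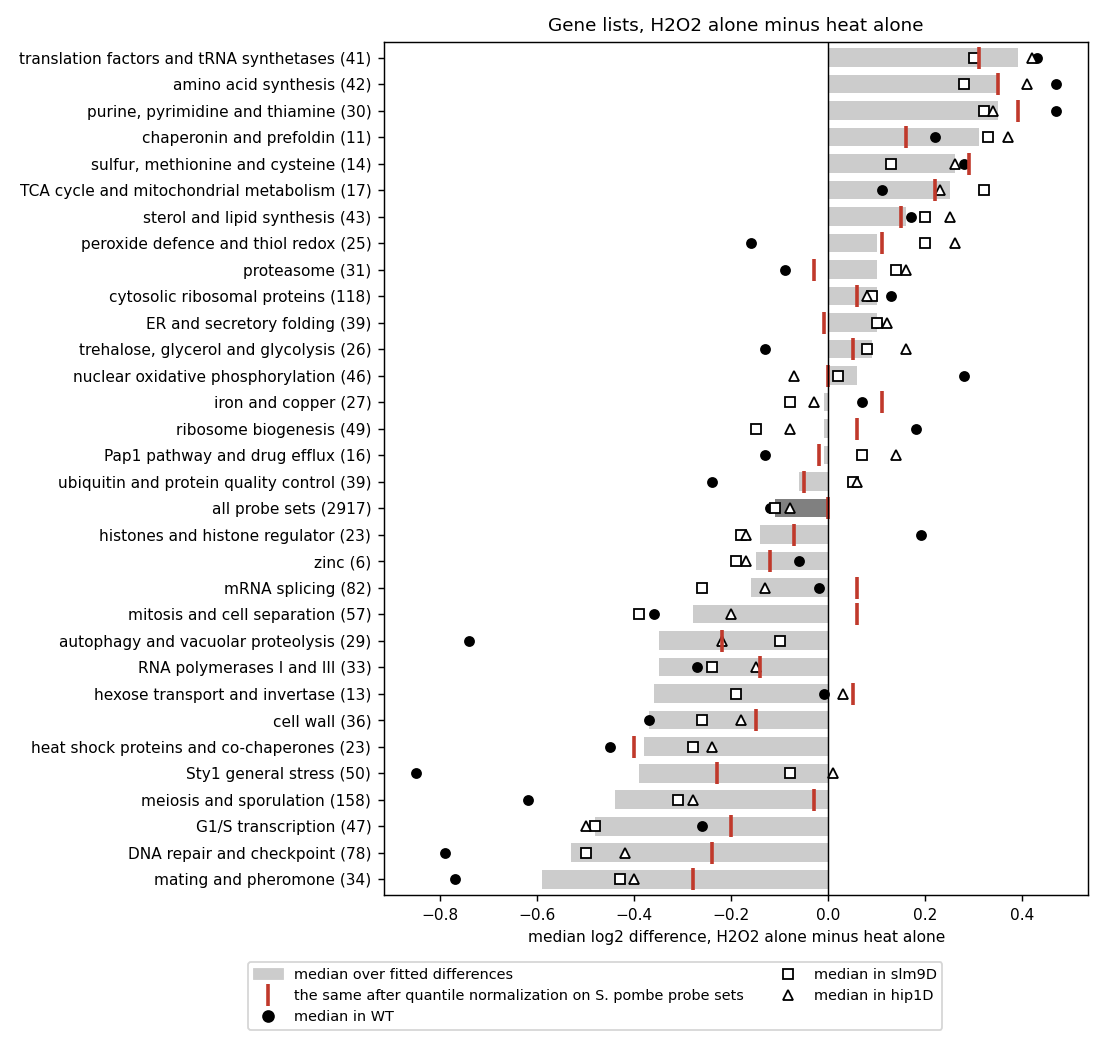
Median log2 difference, H2O2 alone minus heat alone (horizontal), of 31 gene lists and of all probe sets, with the number of tested members in brackets. Grey bars are medians of fitted differences, symbols are medians within a strain and red ticks are medians after quantile normalization. Translation (0.39) and amino acid synthesis (0.35) lie at the top, mating (-0.59) and DNA repair (-0.53) at the bottom, and WT departs furthest for the Sty1 list (-0.85).

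Genes of biosynthesis stood higher after H2O2, with H2O2 levels near those of unstressed cells and heat levels below them. Of 42 amino acid synthesis genes 27 were higher and 2 lower, with a median of 0.35 in either normalization. Against unstressed cells that list's median was -0.08 after H2O2 and -0.46 after heat. The glutamate synthase gene glt1 was 2.16-fold higher after H2O2 (adjusted p = 1.13e-05), the lysine synthesis gene lys3 1.91-fold (adjusted p = 8.24e-06) and the histidine synthesis gene his3 1.83-fold (adjusted p = 1.75e-05).

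Of 30 purine, pyrimidine and thiamine genes 16 were higher and 2 lower, with a median of 0.35 (0.39 after quantile normalization). The adenylosuccinate lyase gene ade8 had levels of 12.07, 12.03 and 12.65 after H2O2 in slm9D, hip1D and WT, against 10.89, 10.64 and 11.22 after heat. H2O2 levels were near the unstressed 12.11, 12.06 and 12.66, and the difference between stresses was 2.53-fold (adjusted p = 8.24e-06). The dihydrofolate reductase gene dfr1 was 2.35-fold higher and the orotate phosphoribosyltransferase gene ura5 1.85-fold higher. nmt1, a thiamine synthesis gene, had levels of 12.02, 11.95 and 6.33 after H2O2 and 9.94, 10.03 and 5.47 after heat, a 3.08-fold difference (adjusted p = 0.000399).

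Of 14 sulfur, methionine and cysteine genes 7 were higher and 1 lower, with a median of 0.26. The median signal of this list, 11.07, fell in the brightest bin, where 270 of 584 probe sets were higher and 89 lower, with a median of 0.12. The share of higher genes was thus near that of the bin. The S-adenosylmethionine synthetase gene sam1 was 2.04-fold higher (adjusted p = 2.58e-05) and the sulfate assimilation gene met14 1.83-fold higher (adjusted p = 1.75e-05). Of 17 genes of the TCA cycle and mitochondrial metabolism 11 were higher and 2 lower, with a median of 0.25, and pdx1 of the pyruvate dehydrogenase complex was 1.92-fold higher (adjusted p = 9.58e-05). Nuclear genes of oxidative phosphorylation were mostly uncalled, with 12 higher, 5 lower and 29 not called of 46.

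In carbon metabolism, hexokinase gene hxk1 was 2.06-fold higher (adjusted p = 1.13e-05) and phosphofructokinase gene pfk1 1.63-fold higher (adjusted p = 5.52e-05). Of 26 genes of trehalose, glycerol and glycolysis 9 were higher and 5 lower. gut2, for the mitochondrial glycerol-3-phosphate dehydrogenase, had levels of 11.18, 11.02 and 10.09 after H2O2 in slm9D, hip1D and WT, against 9.53, 9.73 and 8.01 after heat. All H2O2 levels exceeded all heat levels, by 3.19-fold (adjusted p = 0.000746), and gut2 differed from unstressed by 1.87 after H2O2 and 0.20 after heat.

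Hexose transporter genes differed among themselves. ght8 and ght5 were 1.87-fold and 1.86-fold higher after H2O2 (adjusted p = 0.00248 and 0.00454), and ght3 was 2.83-fold lower (adjusted p = 0.00317). The ght5 groups overlapped because WT was below the mutants under both stresses. The calls of ght5 and ght3 were lost without the strain block (adjusted p = 0.364 and 0.0740). Of 43 genes of sterol and lipid synthesis 18 were higher and 7 lower. cho1, for a methyltransferase of phospholipid synthesis, was 1.98-fold higher (adjusted p = 8.24e-06), and the phospholipase gene plb1 3.24-fold higher (adjusted p = 0.000104).

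Cell cycle genes divided. The large subunit gene of ribonucleotide reductase, cdc22, which supplies DNA precursors in S phase, had levels of 10.13, 10.19 and 10.48 after H2O2 in slm9D, hip1D and WT, against 7.83, 7.80 and 8.85 after heat. The groups lay apart, and both were below the unstressed levels of 10.84, 10.76 and 11.01. The difference was 4.30-fold (log2 2.11, SE 0.16, adjusted p = 1.71e-05). Many other listed G1/S genes went the other way: of 47, 25 were lower after H2O2 and 3 higher, with a median of -0.48 that was -0.20 after quantile normalization (17 lower and 10 higher). The median signal of the G1/S list, 8.58, fell in the bin next to the dimmest. Of all 583 probe sets there, 260 were lower and 66 higher, with a median of -0.31. The replication kinase gene hsk1 was 2.15-fold lower (adjusted p = 7.16e-05) and cdc10, a subunit of the G1/S transcription factor MBF, 1.66-fold lower (adjusted p = 0.000120).

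Cell separation genes showed large differences in both directions. adg1, a surface glycoprotein gene expressed at separation, had levels of 9.83, 9.82 and 10.59 after H2O2 in slm9D, hip1D and WT, against 7.99, 7.95 and 7.06 after heat. It was 5.32-fold higher after H2O2 (log2 2.41, SE 0.46, adjusted p = 0.00177) and differed from unstressed by -0.77 after H2O2 and -3.18 after heat. The glucanase gene exg1 was 3.25-fold higher (adjusted p = 8.26e-05). psu1, a cell wall protein gene of the SUN family, had levels of 8.16, 8.27 and 8.69 after H2O2, against 10.39, 10.07 and 10.64 after heat, 3.99-fold lower (adjusted p = 4.69e-06). It differed from unstressed by -3.42 after H2O2 and -1.43 after heat.

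Of 57 genes of mitosis and cell separation 28 were lower and 14 higher, and their median of -0.28 turned to 0.06 after quantile normalization. Their median signal of 8.34 fell in the bin next to the dimmest. In that bin 260 of 583 probe sets were lower and 66 higher, with a median of -0.31. Of 36 cell wall genes 16 were lower and 7 higher. The cyclin gene psl1 was 3.78-fold higher after H2O2 (adjusted p = 0.000471).

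DNA repair genes stood lower after H2O2 than after heat. Of 78, 48 were lower and 4 higher, with a median of -0.53, and after quantile normalization 32 were lower and 7 higher, with a median of -0.24. By strain the median was -0.50 in slm9D, -0.42 in hip1D and -0.79 in WT. Against unstressed cells it was -0.20 after H2O2 and 0.30 after heat. mag2, a DNA glycosylase gene for alkylated bases, had levels of 7.21, 7.94 and 5.68 after H2O2 in slm9D, hip1D and WT, against 9.12, 10.15 and 10.10 after heat. The groups did not overlap, and it was 7.16-fold lower after H2O2 (log2 -2.84, SE 0.49, adjusted p = 0.00110). Against unstressed cells it differed by -0.26 after H2O2 and 2.58 after heat.

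The recombination gene rad52 was 2.92-fold lower (adjusted p = 5.19e-05). After quantile normalization its difference was -0.78, against -1.55 as deposited. nse3, for a subunit of the Smc5-Smc6 complex, was 1.78-fold lower (adjusted p = 5.52e-05).

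Metal genes showed separate differences at copper and zinc. The copper transporter genes ctr4 and ctr5, whose products form one complex at the cell surface, were 2.66-fold and 2.40-fold lower after H2O2 (adjusted p = 1.75e-05 and 7.09e-05). ctr4 had levels of 9.60, 9.69 and 10.00 after H2O2 in slm9D, hip1D and WT, against 11.18, 11.15 and 11.19 after heat, and unstressed levels of 11.39, 11.30 and 11.74. Heat levels of ctr4 lay near the unstressed ones, and H2O2 levels below both. The copper-sensing activator gene cuf1 was 1.63-fold lower (adjusted p = 0.000259), with a difference of -0.39 after quantile normalization, against -0.71 as deposited.

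The zinc uptake gene zrt1 was 1.83-fold higher after H2O2 (adjusted p = 0.000168), and zrg17, for a zinc transporter of internal membranes, was 3.32-fold lower (adjusted p = 0.000142). Of 27 iron and copper genes 5 were higher and 7 lower, and of 6 zinc genes 2 and 2, shares no larger than the background but for the higher zinc calls.

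Listed genes of the sexual cycle were more often called lower than higher after H2O2 as deposited, but these lists are dim and move with the scaling. The median signal of the meiosis list, 7.21, fell in the dimmest bin. There the median difference over probe sets of any kind was -0.54, with 318 of 584 lower and 28 higher. In a culture, fewer cells of a state and less RNA per cell cannot be told apart. All strains carry 1 mating type and were in rich medium. Of 158 meiosis and sporulation genes 67 were lower and 8 higher, with a median of -0.44, but after quantile normalization 33 were lower and 33 higher, with a median of -0.03. Of 34 mating and pheromone genes 19 were lower and 1 higher, with a median of -0.59, and after quantile normalization 13 were lower and 4 higher, with a median of -0.28.

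Single members differed by far more than that shift. mug14, one of the genes named for being upregulated in meiosis, had levels of 8.97, 9.0 and 8.41 after H2O2 in slm9D, hip1D and WT, against 11.24, 11.62 and 11.07 after heat. It differed from unstressed by 0.75 after H2O2 and 3.26 after heat, and the difference between stresses was 5.73-fold (log2 -2.52, SE 0.15, adjusted p = 8.24e-06). mug146 was 7.14-fold lower after H2O2 (adjusted p = 2.31e-05) and mug115 4.83-fold lower (adjusted p = 0.000389). For mug115 the log2 difference was -1.49 after quantile normalization, against -2.27 as deposited.

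The amino acid permease gene isp5 was 5.06-fold lower (adjusted p = 0.000389) and the G protein beta subunit gene gnr1 4.34-fold lower (adjusted p = 0.000146), but these folds are inexact, since each was above background on 2 of 3 H2O2 arrays. With the background of the WT H2O2 array in place of its dim signals they were 4.72-fold and 3.54-fold. The Ras regulator gene gap1 was 3.38-fold lower (adjusted p = 1.56e-05) and the fusion gene prm1 2.20-fold lower (adjusted p = 5.14e-05). ste13, the 1 mating gene that was higher, encodes an RNA helicase and was 1.87-fold higher (adjusted p = 2.01e-05).

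Of 29 autophagy and vacuolar proteolysis genes 14 were lower after H2O2 and 2 higher, with a median of -0.35, beside -0.22 after quantile normalization. The listed genes aut12, atg22 and atg17 were 2.11-fold, 2.10-fold and 2.08-fold lower (adjusted p = 5.85e-05, 0.000191 and 0.000506). The median was -0.10 in slm9D, -0.22 in hip1D and -0.74 in WT. Among the largest negative differences, whatever the list, was that of say1, which was 4.53-fold lower after H2O2 (adjusted p = 0.000231).

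The kinase gene ppk31 was 7.32-fold lower (adjusted p = 0.00588), with levels of 8.16, 8.22 and 4.71 after H2O2 in slm9D, hip1D and WT, against 9.93, 9.85 and 9.92 after heat. Without WT its difference was -1.70, against -2.87 with it.

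Further lists were near the background or mixed. Of 23 histone genes and their regulator 4 were higher and 6 lower, of 82 splicing genes 20 and 29, and of 39 genes of folding and modification in the endoplasmic reticulum 16 and 7. Of 13 hexose transport and invertase genes 4 were higher and 3 lower. The medians of splicing, hexose transport and endoplasmic reticulum genes changed sign after quantile normalization, to 0.06, 0.05 and -0.01.

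The WT arrays differed from the mutant arrays in how far the stresses lay apart. The spread in the fit of mutants minus WT comes from slm9D against hip1D alone, which correlated at 0.998 after H2O2 and 0.997 after heat, so its p-values hold no variation between WT arrays. In that fit the difference between stresses was more positive in the mutants for 887 probe sets (30.4%) and more negative for 634 (21.7%). Since 1 WT array after H2O2 and 1 after heat carry the whole WT side, a property of either array and one of the strain cannot be told apart. At least 2-fold differences and calls per list are read with that in view. After quantile normalization the surplus of positive over negative calls was gone. The calls per list given below are as deposited and were not repeated under that scaling.

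The most positive differences between strains lay where WT was much lower after H2O2 than after heat and the mutants differed less or the other way. The alpha-galactosidase gene mel1 had levels of 8.78, 8.89 and 4.81 after H2O2 in slm9D, hip1D and WT, against 8.97, 8.82 and 10.27 after heat. The mutants were alike under both stresses, and in WT H2O2 left mel1 near its unstressed level of 4.66. Mutants minus WT was 5.40 (SE 0.13, adjusted p = 1.59e-16). The enolase gene eno102 had 11.26, 11.35 and 8.63 after H2O2, against 10.70, 10.71 and 12.01 after heat, and mutants minus WT was 3.98 (adjusted p = 5.52e-16).

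rds1, a gene known to respond to stress, had 11.64, 11.53 and 10.68 after H2O2 in slm9D, hip1D and WT, against 9.19, 9.10 and 11.92 after heat. Here the mutants were higher after H2O2 and WT was higher after heat, and mutants minus WT was 3.68. For pcm2, a protein repair methyltransferase gene, it was 3.64, for ppk31 3.51 and for fus1, the formin gene of cell fusion, 3.50. The fus1 levels were 8.22, 8.27 and 4.05 after H2O2 and 7.57, 7.73 and 6.96 after heat, and the WT H2O2 level lies at that array's background of 4.03.

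Among the most negative differences, those of nc-pho1 and hem1 lay where WT was low after heat. nc-pho1, the non-coding RNA upstream of the phosphatase gene pho1, had levels of 12.37, 12.38 and 12.93 after H2O2 in slm9D, hip1D and WT, against 12.56, 12.45 and 9.74 after heat. Only the WT heat array among these 6 was low, and mutants minus WT was -3.32 (adjusted p = 1.17e-16). The heme synthesis gene hem1 had 11.06, 11.07 and 11.14 after H2O2, against 11.15, 11.22 and 9.33 after heat, with mutants minus WT at -1.93. The iron permease gene fip1 and the transporter gene fet4 had -1.96 and -1.93. The starch-degrading enzyme gene meu7 had -1.80 and the hexose transporter gene ght6 had -1.76, and for both the mutants were above WT under both stresses. For these 4 genes the mutants themselves were lower after H2O2 than after heat. Without WT the difference was -0.71 for fip1, -0.78 for fet4, -0.69 for meu7 and -1.46 for ght6.

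Among lists, 38 of 50 Sty1 genes had a more positive difference in the mutants and 4 a more negative one, with a median of 0.69, beside 0.02 over all probe sets. For DNA repair these counts were 40 and 7 of 78, for autophagy 20 and 1 of 29 and for ubiquitin and quality control 23 and 1 of 39. In the other direction stood oxidative phosphorylation, with 3 positive and 25 negative of 46, histones with 2 and 13 of 23, and amino acid synthesis with 4 and 16 of 42. Translation had 5 and 5 of 41. Among textbook stress genes, mutants minus WT was 1.72 for ctt1, 1.54 for gst2, 1.31 for srx1, 1.20 for ssa1 and 0.81 for hsp16, and it was -0.02 for pyp2 (adjusted p = 0.910).

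**Figure D4:**
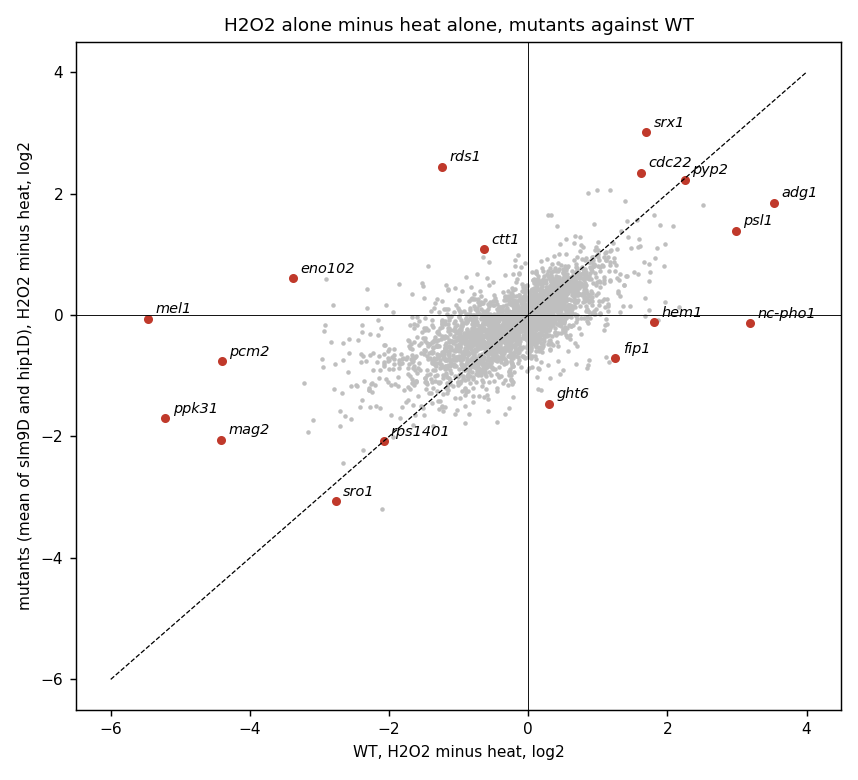
Log2 difference, H2O2 alone minus heat alone, in the mutants (vertical, mean of slm9D and hip1D) against WT (horizontal) for 2917 probe sets, with the dashed line marking equal differences. mel1, pcm2 and ppk31 lie far above the line, nc-pho1 and hem1 below it, and pyp2, sro1 and rps1401 close to it.

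Cells given both stresses in turn were not part of the tests, and their levels are given as a description. For rps1401 the arrays of heat followed by H2O2 read 10.70, 10.64 and 10.62 in slm9D, hip1D and WT, close to H2O2 alone. For ctr4 they read 9.20, 9.04 and 9.09, below either stress alone, and for mug14 10.54, 10.86 and 10.80, nearer to heat alone. For srx1 they read 13.13, 13.10 and 12.99, above H2O2 alone in each strain, and for mel1 11.00, 10.86 and 11.10, above either stress alone in each strain.

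**Figure D5:**
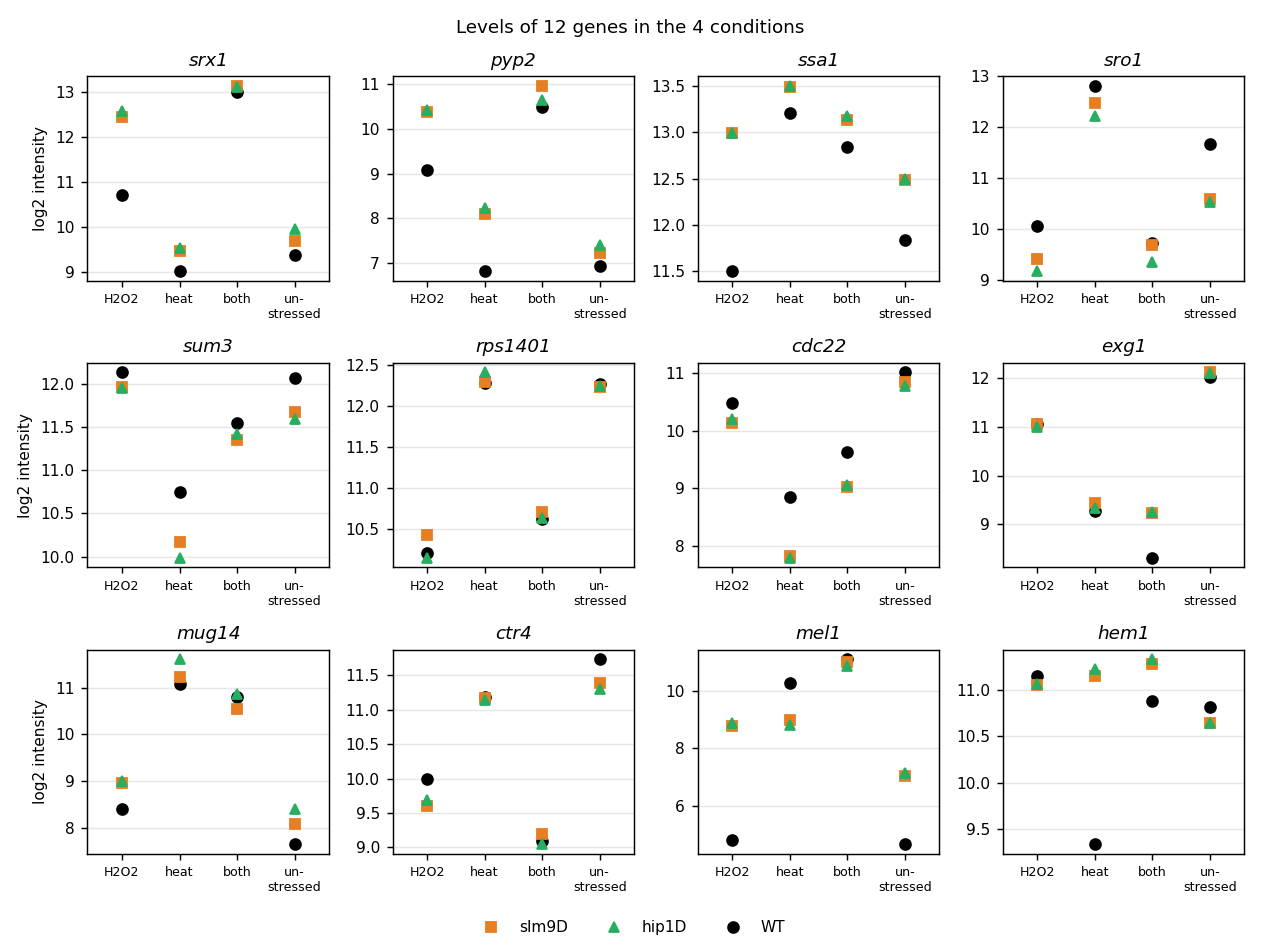
Log2 intensity (vertical) of 12 genes in cells given H2O2 alone, heat alone, both in turn or no stress (horizontal), 1 array per point, with symbols for the 3 strains. rps1401 stands near 10.2 to 10.4 after H2O2 and near 12.3 after heat, and the WT points of mel1 after H2O2 (4.81) and hem1 after heat (9.33) lie apart from the mutants.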

How the data were processed

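Total RNA of the 6 samples compared here, and of 6 others of the same series, was hybridised as biotin-labelled cRNA to 1-colour Affymetrix Yeast Genome arrays, 1 array per strain and condition. Per the submitters' processing notes, the authors ran RMA in Affymetrix Expression Console 1.1, and the deposited intensity values are linear. They run from 2.88 to 20293, and log2 was taken of them. RMA makes the distribution of probe signals alike on all arrays, so differences in total RNA content are removed, and the number of arrays limits the precision. No source used here names a genome build or the RMA settings, so no coordinates are printed, and promoter sequences and motifs are not analysed here.

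Probe sets were matched to the RefSeq gene table, 2914 by gene ID and 3 by symbol, which gave 2917 probe sets with 1 gene (2899 genes, 14 of them with several probe sets). Another 20 shared by several genes were left out, and 2601 of genes outside that table set the background, their 95th percentile on each array. All value columns were used (0 unused). The tests used limma 3.58.1 in R 4.3.3 (lmFit, eBayes with intensity trend, Benjamini-Hochberg over 2917 probe sets). H2O2 alone minus heat alone came from strain and condition on 12 arrays (6 residual degrees of freedom), and mutants minus WT from a fit of 8 means (WT and mutants in each condition) that also separates slm9D and hip1D, with 3 residual degrees of freedom. Same-numbered samples are the same strain, so the strain is the replicate block. Deviations of a strain's 2 arrays from their group means correlated at 0.70 in slm9D, 0.67 in hip1D and 0.71 in WT. The tests were tried on simulated data.

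The comparison, its 31 gene lists and the rule for named genes were chosen with earlier results of these data known. 14 list members were taken out after values were seen, because their symbols belong to other genes in S. pombe. Named were the 12 called genes with the largest difference in each direction with 1 sign in all strains, and up to 4 called members of each list by p. Added were up to 6 for mutants minus WT in each direction, and 14 textbook stress genes, of which hsp104 had no tested probe set. The rule names 154 genes, of which 104 are described, and 1 of the largest negative differences is not reported here. The alternatives tried were leaving out dim probe sets (kept: above background on at least 3 arrays), 2 other scalings, eBayes without trend, the 6 arrays alone, no replicate block, another set of terms, a 2-fold limit and leaving out each strain, and, chosen after seeing the data, array background in place of signals under it.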

Additional observations from a re-analysis of the deposited data

Results flagged for a closer look

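The difference between H2O2 alone and heat alone was itself different in the mutants and in WT for 58 of the 104 genes described, by the limma term for mutants minus WT at an adjusted p under 0.05, with 36 positive and 22 negative. Over all probe sets 30.4% were called positive and 21.7% negative. The rule for naming genes chose some by this same term, so nothing is read from the count. For 12 of the 58 the WT difference had the opposite sign to both mutants. All values below are mutants minus WT on the log2 scale, and each rests on 1 WT array after H2O2 and 1 after heat, with a spread taken from slm9D against hip1D alone. Calls lost under another normalization or without a trend are given with the processing alternatives below.

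Largest were the positive values of mel1 (5.40), eno102 (3.98), rds1 (3.68), pcm2 (3.64), ppk31 (3.51) and fus1 (3.50), whose WT H2O2 level is at background. The DNA repair gene mag2 had 2.36. Of stress genes, ctt1 had 1.72, gst2 1.54, srx1 1.31, ssa1 1.20, srk1 0.90, hsp16 0.81, hsp9 0.65, hsf1 0.62, atf1 0.48, wis4 0.33, txl1 0.30 and tpx1 0.23. Of chaperonin, proteasome and translation genes, sum3 had 0.49, cct8 0.37, cct6 0.30, rpn3 0.26, rhp23 0.20 and nrs1 0.20. Of metabolic and transport genes, isp5 had 1.23, nmt1 1.15, plb1 1.06, ght3 1.06, zrg17 0.60, zrt1 0.27 and pfk1 0.25. Further positive values were 1.36 for say1, 0.90 for atg17, 0.88 for gnr1 and 0.72 for cdc22. The WT H2O2 levels of isp5 (3.73) and gnr1 (3.14) were under that array's background of 4.03, and with the background in their place the values were 0.93 for isp5 and -0.0069 for gnr1.

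Negative values were largest for nc-pho1 (-3.32), fip1 (-1.96), fet4 (-1.93), hem1 (-1.93), meu7 (-1.80) and ght6 (-1.76). adg1 had -1.68, psl1 -1.60 and mug146 -1.10. Of metabolic genes, ght8 had -0.79, ght5 -0.76, gut2 -0.61 and dfr1 -0.37. Of ribosome genes, dbp2 had -0.70, gar2 -0.40 and rpa43 -0.27. Smaller negative values were -0.41 for atg22, -0.39 for pfd5, -0.33 for ctr4, -0.32 for ctr5, -0.32 for nse3 and -0.31 for sro1.

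Outside the gene measurements, the control probe sets for ribosomal RNA were brighter on every H2O2 array than on every unstressed array. The 28S probe averaged 12.80 after H2O2, against 10.53 in unstressed cells, and the 18S probe averaged 12.06, against 10.67. Their part in the gene differences was not tested.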

How the results depend on the processing

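The count of 1681 probe sets called between H2O2 alone and heat alone was 1071 with no replicate block, where the strain is the block and pairs the arrays, with 616 lower in place of 1008. It was 263 when at least 2-fold differences were required. Leaving out each strain in turn gave 948 to 2285 calls, 385 to 919 higher and 563 to 1366 lower. Quantile normalization on S. pombe probe sets gave 82 at least 2-fold higher and 77 lower, against 51 and 212 as deposited. The other alternatives, which gave 1327 to 2431 calls, stayed within 1.5 times, and so did the 1521 calls for mutants minus WT (1364 to 1528). Of the 58 genes called for mutants minus WT, quantile normalization lost 6: wis4 (0.10, adjusted p = 0.472), gar2 (-0.22, 0.181), rpa43 (-0.16, 0.342), ght3 (0.06, 0.724), zrg17 (0.23, 0.435) and isp5 (0.29, 0.200). Empirical Bayes without a trend lost 7, namely sro1, rhp23, nrs1, rpa43, pfk1, zrg17 and zrt1 (adjusted p = 0.0565 to 0.112). With slm9D or hip1D left out there are no residual degrees of freedom. The 58 values kept their sign, but 12 moved by more than their standard error without slm9D and 12 without hip1D. They gave 0.91 and 0.30 for zrg17 and -0.40 and -0.14 for rpa43. With background in place of dim WT signals, an alternative chosen after seeing the data, gnr1 turned to -0.0069.

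Of 31 list medians, 11 changed sign under some alternative. After quantile normalization these were mitosis and cell separation (0.064), hexose transport (0.046), iron and copper (0.11), ribosome biogenesis (0.059), splicing (0.063), proteasome (-0.027), endoplasmic reticulum (-0.0099) and oxidative phosphorylation (-0.0021, and -0.0091 with equal medians outside S. pombe). Leaving out each strain in turn gave -0.013 to 0.12 for the Pap1 list, -0.013 to 0.017 for iron and copper, -0.14 to 0.049 for ubiquitin, -0.10 to 0.034 for ribosome biogenesis, -0.19 to 0.0005 for histones and -0.0017 to 0.15 for oxidative phosphorylation. Among genes, sign changes fell on ones not called over the 3 strains. After quantile normalization they were fus1 (0.084), fip1 (0.27), fet4 (0.47) and meu7 (0.015). Leaving out each strain in turn gave -0.57 to 0.20 for gst2, -1.41 to 0.60 for eno102, -1.19 to 0.59 for fus1, -0.14 to 1.55 for nc-pho1 and -0.12 to 0.86 for hem1, with the sign changing without WT. It gave -0.71 to 0.35 for fip1, -0.78 to 0.23 for fet4 and -0.69 to 0.25 for meu7, with the sign changing without slm9D and without hip1D. The cause was not tested. The 9 calls lost with no replicate block were those of pap1, hsp16, hsp9, ssa1, cct6, ght3, ght5, nmt1 and pcm2. Dim signals limit isp5 and gnr1, above background on 2 of 3 H2O2 arrays, and fus1, at background on the WT one.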
